A study of Mus musculus with 4 samples.

Results

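The genes described here take up, activate, burn and store fatty acids, and they were chosen by name. The list holds 37 genes out of 38293 in the deposited table: 5 for uptake and binding, 4 for activation, 5 of the carnitine shuttle, 13 of beta-oxidation, 3 for electron transfer, 3 for lipid droplets and 4 regulators. RNA was measured by sequencing of polyadenylated transcripts from ventricles of E12.5 mouse embryos on a C57BL/6 background, all from litter 6, after the atria and valves had been cut away. The conditional knockout group (cKO) has the genotype Hif1alphaflox/flox/Nkx2.5Cre/+, and the control group is Hif1alphaflox/flox/Nkx2.5+/+. Both groups therefore carry floxed Hif1a on both chromosomes, and they differ in a Cre recombinase placed in 1 copy of Nkx2-5, a gene active in heart muscle precursors. No group has the Cre without floxed Hif1a, so effects of the Cre and of the lost Nkx2-5 copy cannot be told apart from those of Hif1a deletion. There were 2 libraries per group, numbered 2 and 3 in each.

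Long-chain fatty acids enter a muscle cell through membrane carriers, are bound to coenzyme A, and cross into mitochondria as carnitine esters. There a repeating cycle of dehydrogenation, hydration, a further dehydrogenation and thiolytic cleavage shortens the chain and releases acetyl-CoA, with electrons passed on to the respiratory chain. The adult heart draws most of its energy from this pathway, while the embryonic heart lives at low oxygen and relies more on glycolysis. HIF-1, of which Hif1a encodes the oxygen-regulated subunit, is known as an activator of glycolysis and of lipid droplet genes in hypoxic cells.

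None of the 37 fatty acid genes passed edgeR's quasi-likelihood test between cKO and control at an adjusted p under 0.05, in either direction. Over all 13711 genes tested 0.511% passed, 0.146% higher and 0.365% lower in cKO, so a list of this length would hold few calls at that rate. At an unadjusted p under 0.05 there was 1 of the 37, Echs1, against 6.97% of all genes. Without control replicate 2 there were 7 of the 37, against 12.47% of all genes, and without control replicate 3 there were 3, against 5.31%. DESeq2 and limma-voom also called 0 of the 37, with the same 1 gene under the unadjusted threshold. The log2 fold changes of the fatty acid genes, cKO over control, ran from -0.41 for Ppara to 0.27 for Cpt1c. Their median was 0.063, beside -0.0003 over all genes tested. The 95% interval of the fold change lay inside 1.5-fold in both directions for 33 of the 37, against 66.9% of all genes. The 4 whose interval reached further were Lpl, Cpt1c, Ppara and Ppargc1b. These intervals are per gene and are not adjusted for the number of genes. They widen at low counts, and by level per transcript length the median fatty acid gene stood at percentile 85.2 of all genes tested. The part of level in the 33 of 37 was not tested.

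The comparison was able to show changes elsewhere in energy metabolism. Pdk1, a kinase that restrains pyruvate dehydrogenase and so the burning of glucose carbon, was at 64.6 and 59.7 CPM in the cKO libraries, against 253 and 260 CPM in the control libraries. CPM is a gene's count over its library's total after TMM scaling, brought to a common total, and values are given in the order replicate 2, replicate 3. The log2 fold change of Pdk1 was -2.05 ± 0.09 (SE), with an adjusted p of 2.65e-05. Bnip3, which marks mitochondria for removal, fell to 32.1 and 34.6 CPM in cKO, against 159 and 144 CPM in controls (adjusted p = 3.15e-05). The lactate dehydrogenase gene Ldha fell to 395 and 433 CPM in cKO, against 1248 and 1226 CPM in controls (adjusted p = 0.000161). These 3 genes were picked as a yardstick with their fall in these libraries known. Among the 11776 genes within the CPM range of the fatty acid genes, the smallest change past the test was 0.54 on the log2 scale, larger than that of any fatty acid gene.

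**Figure D1:**
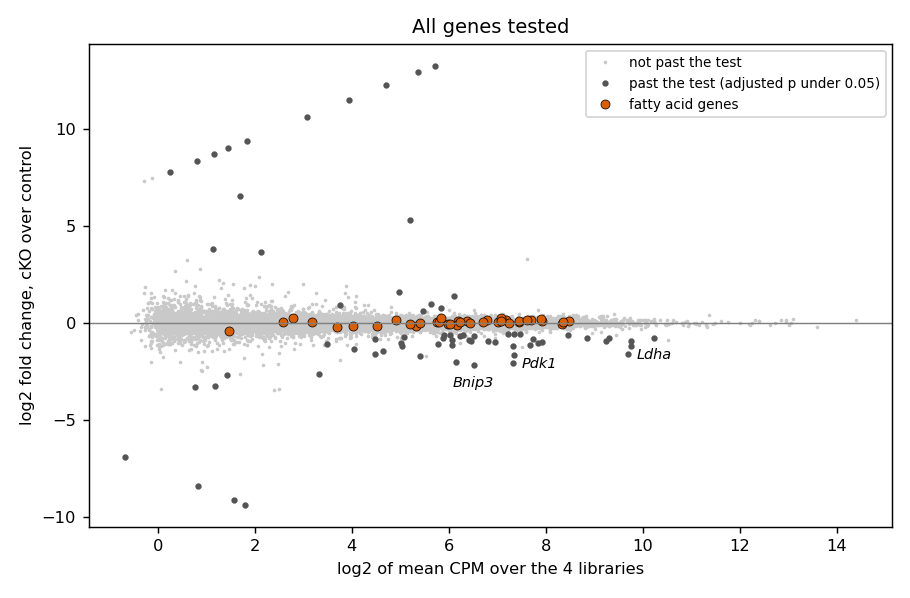
Log2 fold change of cKO over control for each gene tested, plotted against the log2 of its mean CPM over the 4 libraries. The 37 fatty acid genes (orange) lie between -0.41 and 0.27, among the genes that did not pass the test (light grey), while Pdk1, Bnip3 and Ldha lie below.

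Library totals were 9980051 and 19801300 expected counts in cKO, against 8561687 and 8989184 in controls. The lowest count of any fatty acid gene was 17, for Ppara in cKO replicate 2. Xist and the Y-linked Ddx3y marked cKO replicate 3 as the only male library (Xist at 2.12 CPM there and at 1770 to 2078 in the others). Hif1a counted over the whole gene was 716 and 663 CPM in cKO, against 530 and 552 CPM in controls, and does not check the deletion, since the count covers deleted and retained exons together. Nkx2-5, which carries the Cre, was at 44.3 and 42.1 CPM in cKO, against 55.9 and 64.9 CPM in controls (adjusted p = 0.153). The 10 heart muscle markers summed to 36964 and 36021 CPM in cKO, against 39508 and 38185 CPM in controls, and none of them passed the test. The labels do not say whether each library came from a separate embryo. By Xist and Ddx3y the cKO libraries differed in sex, so they were not repeats of the same embryo, while the controls may have been. The p-values measure only the spread between these samples, which may be technical in the controls.

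**Figure D2:**
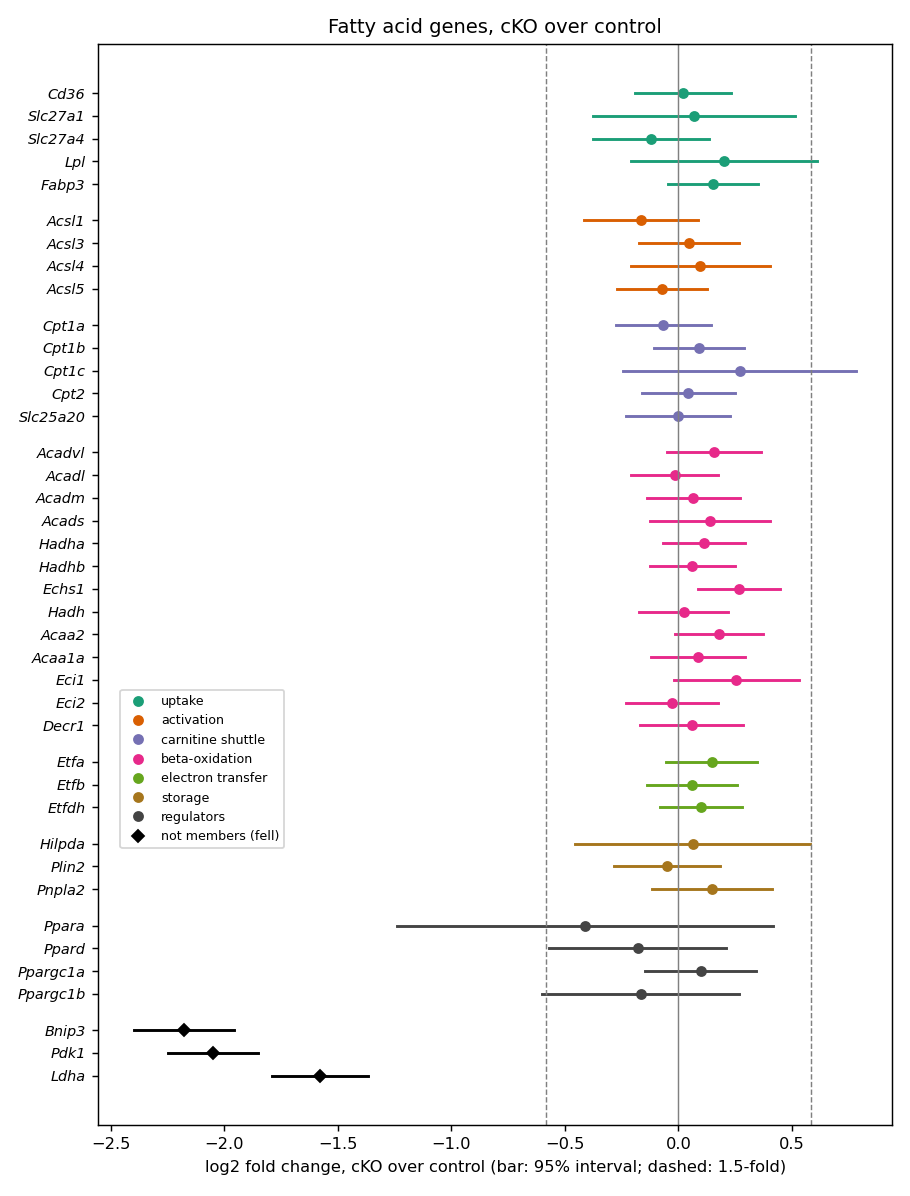
Log2 fold change, cKO over control, of each fatty acid gene with its 95% interval, grouped by role, above 3 genes outside the list that fell. Intervals of 33 of the 37 lie between the dashed lines at 1.5-fold, and the widest is that of Ppara, the gene with the lowest level.

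The uptake genes did not pass the test. Fabp3, the heart form of the cytosolic fatty acid-binding protein, had 211 and 199 CPM in cKO, against 194 and 175 CPM in controls. Both cKO values stood above both controls, by 0.15 ± 0.09 (SE) on the log2 scale (adjusted p = 0.765). Lpl encodes lipoprotein lipase, which frees fatty acids from circulating triglycerides at the vessel wall. It had 241 and 269 CPM in cKO, against 271 and 174 CPM in controls, so the groups overlapped and control replicate 3 stood apart as the lowest. Its log2 fold change of 0.20 ± 0.18 (adjusted p = 0.862) was 0.56 when control replicate 2 was left out (adjusted p = 0.124) and -0.085 when control replicate 3 was. Cd36, the membrane translocase for long-chain fatty acids, had 82.4 and 92.3 CPM in cKO, against 89.0 and 83.8 CPM in controls. These overlapping values gave a log2 fold change of 0.020, with a 95% interval from -0.19 to 0.23. Of the acyl-CoA synthetase transporters, Slc27a4 had 21.7 and 22.1 CPM in cKO, against 22.7 and 24.9 CPM in controls. Slc27a1 had 9.41 and 9.09 CPM in cKO, against 9.81 and 7.83 CPM in controls. Slc27a4 was a little lower in both cKO libraries than in either control (-0.12 ± 0.11, adjusted p = 0.870), and Slc27a1 overlapped.

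Activation of long-chain fatty acids to acyl-CoA is carried out by the Acsl enzymes, none of which passed. Acsl1, the form tied to oxidation in adult heart and other tissues, had 35.6 and 39.9 CPM in cKO, against 39.5 and 45.5 CPM in controls (-0.17 ± 0.11, adjusted p = 0.791). Acsl5 had 68.3 and 72.7 CPM in cKO, against 74.2 CPM in each control, and Acsl3, an enzyme of lipid droplet growth, had 135 and 130 CPM in cKO, against 138 and 118 CPM in controls. Acsl5 was thus lower in both cKO libraries by a small amount (-0.073, 95% interval -0.27 to 0.12), while Acsl3 and Acsl1 overlapped. Acsl4, which prefers arachidonic acid, lies on chromosome X. It had 73.9 CPM in the female cKO library and 98.5 CPM in the male one, against 77.9 and 84.2 CPM in the 2 female controls. The highest value was that of the male library, and the part of sex in it was not tested. Without that library the log2 fold change was -0.13, and without cKO replicate 2 it was 0.28.

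The carnitine shuttle begins with carnitine palmitoyltransferase 1, the step inhibited by malonyl-CoA. The gene family named after this enzyme holds a liver form (Cpt1a), a muscle form (Cpt1b) and a form best known from brain (Cpt1c). A part of Cpt1c in the shuttle was not tested. Cpt1b had 248 and 251 CPM in cKO, against 222 and 247 CPM in controls. Cpt1a had 63.7 and 60.5 CPM in cKO, against 62.7 and 67.2 CPM in controls, and Cpt1c had 6.78 and 8.19 CPM in cKO, against 5.67 and 6.84 CPM in controls. Cpt1b was above both controls in both cKO libraries, though control replicate 3 came within about 1 CPM of cKO replicate 2, and the other forms overlapped. The log2 fold changes were 0.091 for Cpt1b, -0.066 for Cpt1a and 0.27 for Cpt1c, with adjusted p of 0.874, 0.912 and 0.848. They depended on single libraries: Cpt1b was at 0.014 with control replicate 2 omitted and 0.17 with control replicate 3 omitted, Cpt1a at -0.11 and -0.014 under the same omissions, and Cpt1c at 0.14 and 0.41. Without cKO replicate 3 Cpt1c was at 0.11 and Cpt1a at -0.027. Divided by transcript length, Cpt1b made up 83.3% and 83.6% of the 3 forms in cKO, against 82.2% and 82.6% in controls. Cpt1a made up 14.3% and 13.5% in cKO, against 15.6% and 15.03% in controls. The muscle form was therefore already the main transcript at this stage in every library, and its share differed between groups by less than 2 percentage points. Cpt1b shares 2744 exon bases with Gm44502, an annotated gene on the same strand that is not analysed here. The median length of the Cpt1b coding transcripts is 2895 bases. Reads of the shared bases could belong to either gene, which bears on the level of Cpt1b and on its share. Cpt2, which turns the carnitine ester back into acyl-CoA inside the mitochondrion, and Slc25a20, the carrier that exchanges carnitine esters across the inner membrane, had log2 fold changes of 0.044 and -0.0001, with adjusted p of 0.944 and 0.9999.

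Of the 13 beta-oxidation genes 11 had a positive log2 fold change, and in 6 both cKO libraries stood above both controls. Over all genes 49.9% were positive and 19.4% stood above the controls without overlap. None of the 13 passed the test, and their median was 0.086. Echs1 (ENSMUSG00000025465, chr7:140105710-140116476 on the minus strand of GRCm38) encodes the short-chain enoyl-CoA hydratase, which adds water to the chain. It had 150 and 146 CPM in cKO, against 124 and 122 CPM in controls. The gap between groups exceeded that between replicates, and it was the smallest p in the list (log2 fold change 0.27 ± 0.08, unadjusted p = 0.00905, adjusted p = 0.481 in edgeR). Leaving out each library in turn gave 0.25 to 0.29. Its expected counts were not whole in any of the 4 libraries. Eci1, an isomerase needed for unsaturated fatty acids, had 64.03 and 60.5 CPM in cKO, against 58.2 and 46.1 CPM in controls. Its controls differed from each other by more than the groups did (0.26 ± 0.12, adjusted p = 0.726), and the log2 fold change was 0.43 with control replicate 2 left out and 0.097 with control replicate 3 left out. Acaa2, the mitochondrial thiolase that releases acetyl-CoA, had 160 and 149 CPM in cKO, against 141 and 132 CPM in controls (0.18 ± 0.08, adjusted p = 0.726). For Eci1 and Acaa2 both cKO libraries were above both controls. Eci1 lies on chromosome 17, as does Nkx2-5, which carries the Cre. The part of DNA linked to the Cre copy in the Eci1 values was not tested.

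The acyl-CoA dehydrogenases, which start each round on chains of different length, were as close between groups. Acadvl, for very long chains, had 123 and 110 CPM in cKO, against 107 and 102 CPM in controls. Acadl, for long chains, had 337 and 309 CPM in cKO, against 325 and 329 CPM in controls. Acadm, for medium chains, had 177 and 181 CPM in cKO, against 182 and 160 CPM in controls. Only Acadvl of these 3 had its groups apart (0.16 ± 0.09, adjusted p = 0.765); 976 of its exon bases overlap Dvl2 on the opposite strand, and the kit does not keep strand, so reads there cannot be assigned to one gene. Acads, for short chains, had 80.2 and 73.8 CPM in cKO, against 62.4 and 77.2 CPM in controls. Its sign rested on control replicate 2: without that library the log2 fold change was -0.0060, against 0.14 with all 4.

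Hadha and Hadhb encode the paired subunits of the mitochondrial trifunctional protein, which carries out the later steps on long chains. Hadha had 378 and 368 CPM in cKO, against 348 and 343 CPM in controls, and Hadhb had 328 and 340 CPM in cKO, against 330 and 310 CPM in controls. Hadha was above the controls in both cKO libraries (0.11 ± 0.08, adjusted p = 0.811) and Hadhb overlapped (0.062 ± 0.08, adjusted p = 0.907). Of the rest, Acaa1a, a peroxisomal thiolase, stood above the controls without overlap (58.1 and 53.9 CPM in cKO, against 53.3 and 52.0 CPM in controls). Hadh, Eci2 and Decr1, the last needed for polyunsaturated chains, overlapped, with log2 fold changes of 0.024, -0.027 and 0.060.

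Electrons from the dehydrogenases pass through the flavoprotein made of Etfa and Etfb to the oxidoreductase Etfdh and on to ubiquinone. Etfa had 213 and 223 CPM in cKO, against 208 and 186 CPM in controls, and Etfdh had 184 and 177 CPM in cKO, against 172 and 166 CPM in controls. Both stood above their controls in both cKO libraries, by 0.15 ± 0.09 and 0.100 ± 0.08 on the log2 scale, and neither passed (adjusted p = 0.768 and 0.835). Etfb overlapped, with 109 and 105 CPM in cKO, against 107 and 98.1 CPM in controls. It shares 617 exon bases with Gm45233, an annotated gene on the same strand that is not analysed here, so its level may include reads of either.

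**Figure D3:**
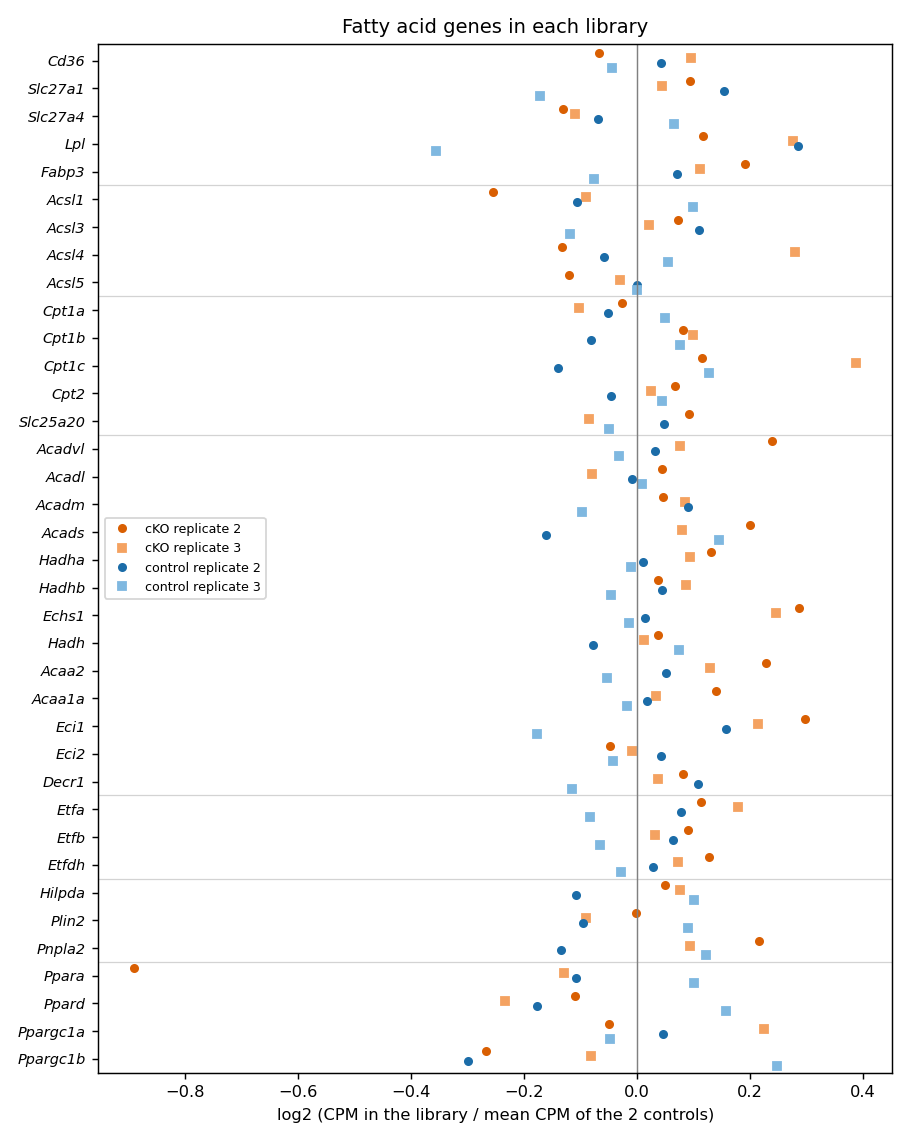
Each library's level of each fatty acid gene as the log2 of its CPM over the mean CPM of the 2 controls, with cKO in orange and control in blue. The groups mix at most genes, while at 10 genes, among them Echs1 and Hadha, both cKO points lie to the right of both controls.

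Lipid droplet genes were examined because HIF-1 is known to act on them in hypoxic cells. Hilpda, an inhibitor of the lipase encoded by Pnpla2 and a known hypoxia-induced gene, was low, at 6.07 and 6.18 CPM in cKO, against 5.44 and 6.29 CPM in controls. These are 60 and 123 counts in cKO, against 46 and 57 counts in controls. The groups overlapped, and the 95% interval of the log2 fold change ran from -0.46 to 0.58 around 0.063 (adjusted p = 0.968). Plin2, a coat protein of lipid droplets, had 37.2 and 35.0 CPM in cKO, against 34.9 and 39.7 CPM in controls, which overlapped as well (-0.051 ± 0.10, adjusted p = 0.943). Pnpla2, the main triglyceride lipase, had 33.3 and 30.6 CPM in cKO, against 26.1 and 31.2 CPM in controls (0.15 ± 0.12, adjusted p = 0.833). Its cKO replicate 3 lay between the controls, and omitting control replicate 2 gave a log2 fold change of 0.029, while omitting control replicate 3 gave 0.29.

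The promoters of Hilpda and Plin2 are shown beside those of Bnip3 and Pdk1, which fell, since all 4 hold the core letters of the HIF-binding element. Each is a window from 250 bases before to 50 bases after a transcription start, from RefSeq on build GRCm38.p6, written 5′ to 3′ on the gene's strand. Capitals mark ACGTG or GCGTG, read on either strand, so CACGT and CACGC are the same letters on the other strand; in CACGTG 2 matches overlap.
Hilpda (chr6:29272376-29272675, plus strand): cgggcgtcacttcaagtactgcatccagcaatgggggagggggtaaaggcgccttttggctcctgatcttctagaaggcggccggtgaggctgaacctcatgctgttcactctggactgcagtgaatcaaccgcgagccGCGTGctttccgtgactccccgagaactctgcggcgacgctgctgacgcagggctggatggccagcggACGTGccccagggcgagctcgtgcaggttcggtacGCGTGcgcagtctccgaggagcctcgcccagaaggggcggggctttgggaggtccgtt
Plin2 (chr4:86670010-86670309, minus strand): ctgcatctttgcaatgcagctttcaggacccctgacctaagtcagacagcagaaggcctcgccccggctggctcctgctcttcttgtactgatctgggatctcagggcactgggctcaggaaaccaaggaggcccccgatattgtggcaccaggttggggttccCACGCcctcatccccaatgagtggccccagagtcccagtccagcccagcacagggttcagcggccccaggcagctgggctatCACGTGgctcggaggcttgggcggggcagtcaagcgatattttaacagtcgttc
Bnip3 (chr7:138909457-138909756, minus strand): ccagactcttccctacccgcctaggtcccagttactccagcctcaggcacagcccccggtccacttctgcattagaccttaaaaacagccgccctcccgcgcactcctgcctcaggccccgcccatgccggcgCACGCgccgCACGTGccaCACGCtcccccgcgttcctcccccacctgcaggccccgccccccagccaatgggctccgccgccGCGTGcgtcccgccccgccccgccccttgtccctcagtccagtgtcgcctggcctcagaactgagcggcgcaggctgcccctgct
Pdk1 (chr2:71872974-71873273, plus strand): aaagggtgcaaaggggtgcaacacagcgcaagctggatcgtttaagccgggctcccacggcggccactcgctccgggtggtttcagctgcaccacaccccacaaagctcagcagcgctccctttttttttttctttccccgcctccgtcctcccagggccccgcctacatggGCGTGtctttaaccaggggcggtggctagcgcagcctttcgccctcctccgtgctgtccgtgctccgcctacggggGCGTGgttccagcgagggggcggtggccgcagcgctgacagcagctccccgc
The Hilpda window holds 3 matches, that of Plin2 holds 3, that of Bnip3 holds 5 and that of Pdk1 holds 2. Hilpda and Pdk1 each have a second RefSeq start, not shown, whose window holds 1 match for Hilpda and 0 for Pdk1. The letters are common: 43.8% of all 32851 windows of this length hold at least 1 match. By gene, 20 of the 32 fatty acid genes with a window hold a match, or 62.5%, beside 46.7% of all 27025 genes with one. A match is a stretch of letters and not a shown binding site. The element of PPAR and its partner RXR, taken as AGGTCA repeated directly with 1 base between on either strand, was in 0 of the 32 and in 0.0481% of all genes with a window, while AGGTCA alone was in 7 of the 32, or 21.9%, beside 18.1% of all genes.

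None of the 4 regulators passed, and they include Ppara, the member with the lowest level and the widest interval. Ppara encodes the fatty acid-sensing nuclear receptor that drives oxidation genes in adult heart. It had 1.72 and 2.91 CPM in cKO, against 2.96 and 3.42 CPM in controls, or 17 and 58 counts in cKO, against 25 and 31 counts in controls. Both cKO values lay below both controls, but cKO replicate 3 lay close to control replicate 2. The interval of its fold change ran from 0.424 to 1.34 (log2 fold change -0.41 ± 0.36, adjusted p = 0.859). The log2 fold change was -0.13 without cKO replicate 2 and -0.89 without cKO replicate 3. Ppard, the widely expressed form, had 12.6 and 11.6 CPM in cKO, against 12.1 and 15.2 CPM in controls (-0.18 ± 0.17, adjusted p = 0.874). Ppargc1a, a coactivator that raises mitochondrial content, had 126 and 153 CPM in cKO, against 135 and 126 CPM in controls (0.098 ± 0.11, adjusted p = 0.886). Its relative Ppargc1b had 14.3 and 16.2 CPM in cKO, against 13.9 and 20.4 CPM in controls (-0.17 ± 0.19, adjusted p = 0.893). Ppard, Ppargc1a and Ppargc1b each overlapped between groups. Ppard, like Eci1, lies on chromosome 17 with Nkx2-5, and the part of linked DNA in its values was not tested.

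Levels per transcript length show which members dominate in the embryonic ventricle. Dividing CPM by the median length of a gene's coding transcripts, Fabp3 came first, at a mean of 249 CPM per kilobase in cKO and 224 in controls. Acadl followed at 169 in cKO and 171 in controls, and Hadhb at 163 in cKO and 157 in controls. Etfa, Etfb and Acaa2 came next, so the leading 6 were a binding protein, 3 enzymes of the cycle and both subunits of the electron-transfer flavoprotein. The lowest were Ppara at 0.920 in cKO and 1.27 in controls, Cpt1c at 2.72 in cKO and 2.27 in controls, and Slc27a1 at 3.35 in cKO and 3.19 in controls. Neighbours in the order often did not differ beyond their spread. Acadm, for example, ranged from 78.2 to 89.0 CPM per kilobase over the 4 libraries, and Hadh, next below it, from 79.1 to 87.8. By this measure the median member stood at percentile 85.2 of all genes tested.

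Within each family the main form was the same in all 4 libraries. Acsl3 was the main form of the 4 synthetases per transcript length, with 52.4% and 47.5% in cKO, against 51.1% and 45.5% in controls. It shares 206 exon bases with Utp14b on the same strand, and its expected counts were not whole in any of the 4 libraries. Its level and share may therefore include reads of either gene. Acsl1 made up 12.0% and 12.7% in cKO, against 12.7% and 15.3% in controls. Ppargc1a made up 87.0% and 87.7% of the coactivator pair in cKO, against 88.0% and 82.5% in controls, and Slc27a4 made up 61.2% and 62.3% of its pair in cKO, against 61.2% and 68.4% in controls. Control replicate 3 had the highest share of Acsl1 and of Slc27a4 and the lowest share of Ppargc1a among the 4 libraries.

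**Figure D4:**
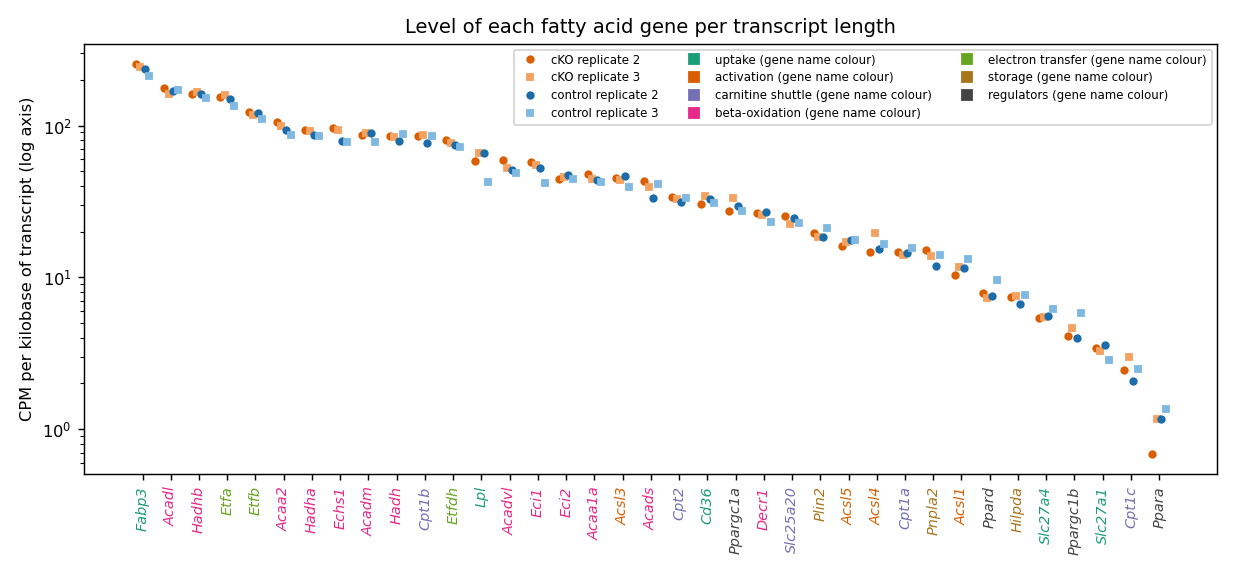
Level of each fatty acid gene in each library as CPM per kilobase of transcript, on a log axis, ordered by mean, with gene names coloured by role. Levels span from about 1 for Ppara to about 250 for Fabp3, and the 4 libraries lie close together at most genes but are spread at Ppara and Lpl.

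Summed over all 37 genes the level was 4187 and 4194 CPM in cKO, against 4040 and 3860 CPM in controls, a ratio of 1.06. The 13 beta-oxidation genes summed to 2150 and 2084 CPM in cKO, against 2020 and 1961 CPM in controls, also a ratio of 1.06. For electron transfer the sums were 507 and 505 CPM in cKO, against 487 and 449 CPM in controls. In these 3 sums both cKO libraries were above both controls, while the sums for uptake, activation, carnitine shuttle, storage and regulators overlapped. The sum over all 37 genes contains the beta-oxidation and electron transfer sums, so it is not a separate result. Over the same libraries the sum of heart muscle markers was lower in both cKO libraries, as were its largest terms Myh7 and Actc1, while 5 of the 10 markers had a higher mean in cKO and the median log2 fold change was -0.026. Also lower in both cKO libraries were the sums of 10 endothelial and endocardial markers (1482 and 1336 CPM in cKO, against 1575 and 1662 CPM in controls) and 7 smooth muscle and pericyte markers (897 and 1025 CPM in cKO, against 1333 and 1350.3 CPM in controls). The largest term of the latter sum was Acta2 (497 and 599 CPM in cKO, against 833 and 862 CPM in controls). Tagln, Cnn1 and Cspg4 were also lower in both cKO libraries. Myh11, Pdgfrb and Rgs5 overlapped, with Myh11 at only 0.355 to 0.452 CPM. None of the 6 smooth muscle and pericyte markers that could be tested passed. Of 10 epicardial markers 1 passed the test, and their sums overlapped (372 and 287 CPM in cKO, against 358 and 405 CPM in controls). The part of cell makeup in the sums was not tested, and in bulk tissue fewer cells of a type and less RNA per cell cannot be told apart.

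**Figure D5:**
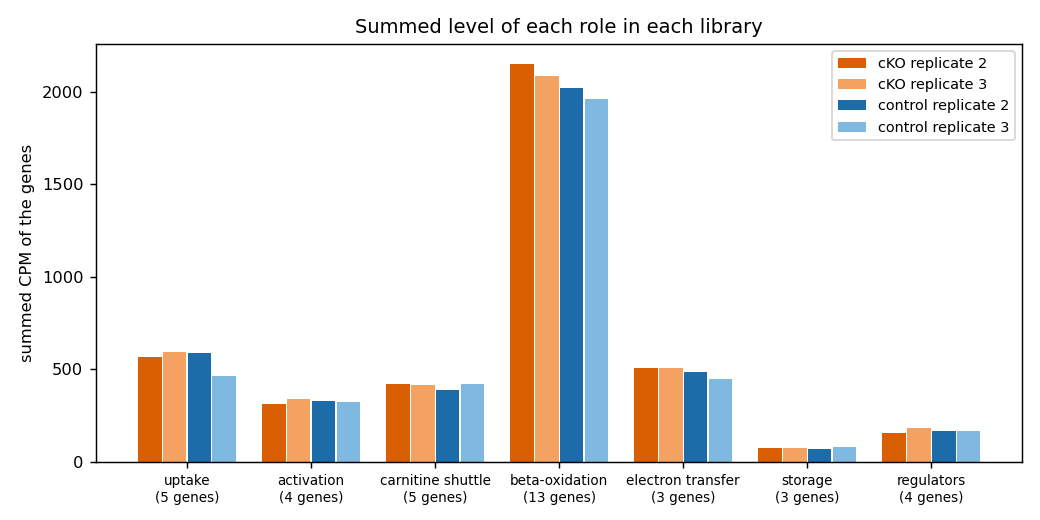
Summed CPM of the fatty acid genes of each role in each library, as bars from zero. The beta-oxidation bars of cKO replicates 2 and 3 reach 2150 and 2084, slightly above the controls at 2020 and 1961, and the uptake bar of control replicate 3 is the lowest of its group of 4.

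The difference between groups was set against that between libraries of 1 group. The absolute log2 difference between group means had a median of 0.091, the difference between the 2 controls a median of 0.15, and that between the 2 cKO libraries a median of 0.082. These measures are not alike, since a difference between means varies less than a difference between single libraries. The shares over all genes are therefore given beside the counts. In 28 of 37 genes the controls differed from each other by more than the groups did, and in 16 of 37 the cKO libraries did, beside 61.04% and 53.3% of all genes tested. Only Fabp3, Hadha, Echs1, Acaa2 and Etfdh, 5 of 37, had a group difference larger than both replicate differences, beside 24.5% of all genes tested. Over the whole list 10 genes stood above the controls without overlap in cKO and 3 below, beside 19.4% and 18.8% of all genes. The 3 below were Slc27a4, Acsl5 and Ppara.

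Genes of lipid metabolism outside the list gave no calls either. Of 99 such genes 83 could be tested. Of these 0 passed edgeR's test, beside 0.511% of all genes, and 3 had an unadjusted p under 0.05, beside 6.97%. DESeq2 and limma-voom also called 0. Their median log2 fold change was -0.0060, with 39 of 83 positive, beside 49.9% of all genes tested. Scd1, a fatty acid desaturase, had 5.56 and 11.6 CPM in cKO, against 4.14 and 5.51 CPM in controls (0.87 ± 0.36, adjusted p = 0.693). Its log2 fold change rested on cKO replicate 3, the only male library, and was 1.26 without cKO replicate 2. That leave-out sets a male library against female controls, and the part of sex in it was not tested. Pparg, the receptor of adipocyte differentiation, had 0.708 and 0.653 CPM in cKO, against 1.3003 and 1.65 CPM in controls (-1.12 ± 0.44, adjusted p = 0.673). The groups did not overlap for Scd1 or for Pparg. Of all genes tested, 19.4% stood above the controls in this way and 18.8% below. For Scd1, cKO replicate 2 at 5.56 CPM nearly touched control replicate 3 at 5.51 CPM. Pparg was low, at no more than 1.65 CPM in any library.

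By group, 11 genes of fatty acid synthesis and desaturation had a median of -0.027, 11 of peroxisomal oxidation -0.00078, 13 nuclear receptors and partners -0.068, and 19 of triglyceride synthesis, droplets and lipolysis -0.0065. The median was 0.030 for 6 other genes of activation and the carnitine shuttle, -0.069 for 10 of uptake and binding, and 0.012 for 4 further PPAR targets. The 11 other genes of mitochondrial oxidation had a median of 0.11, and 9 of them were positive, beside 49.9% of all genes tested. In 4 of the 11 both cKO libraries stood above both controls, beside 19.4% of all genes, and in 1 both stood below, beside 18.8%. In the lists not yet named, the smallest p belonged to Crot (0.17 ± 0.09) for activation and carnitine, Dbi (0.18 ± 0.10) for uptake and binding, Acox3 (0.21 ± 0.12) for peroxisomes and Fitm1 (0.27 ± 0.13) for droplets. Crot moves medium chains out of peroxisomes, Dbi binds acyl-CoA, Acox3 is a peroxisomal oxidase and Fitm1 helps droplets form in muscle. Fat cell markers were nearly absent: the 6 listed summed to 0.101 and 0.100 CPM in cKO, against 0.236 and 0.110 CPM in controls, and Cidec, Lep and Cfd had 0 counts in every library. Erythroid markers, by contrast, summed to 2839 and 6867 CPM in cKO, against 5361 and 6226 CPM in controls, with cKO replicate 2 far below the rest. Their part in the fatty acid values was not tested, and without cKO replicate 2 the median of the fatty acid genes was 0.074.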

How the data were processed

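The deposited values, made by the authors, are expected counts per gene, in which a read matching more than 1 gene can be split. The submitters' processing notes name CASAVA 1.8.2, cutadapt 1.3, RSEM 1.2.3 and build GRCm38; annotation and parameters were not given in the sources used here. All 4 counts were whole, within 1e-06, for 26 of the 37 genes. The expected counts were rounded. Symbols, positions and lengths came from GENCODE M21 on GRCm38. Genes passed edgeR's filter by group (minimum count 10, minimum total 15), which all 37 did. Libraries were scaled by TMM and compared with edgeR 4.0.16 (glmQLFit and glmQLFTest, R 4.3.3, 2 residual degrees of freedom) with Benjamini-Hochberg adjustment over all 13711 genes. SE is the absolute log2 fold change over the square root of F. Intervals use the test's total degrees of freedom, which add prior ones estimated over all genes to the residual ones. The variance of each gene is thus partly borrowed from other genes, and the intervals depend on this. DESeq2 1.42.0, limma 3.58.1 (voom), other scalings and filters, thinning, a replicate block and leave-outs were alternatives. The fit was tested on simulated data. BLAST 2.17.0 found near-identical copies (95% over 300 bases) of Acaa1a, Eci2, Fabp3 and Hadhb, each copy with at most 11.2 counts in a library.

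The members, gene lists and named genes were chosen with earlier results of these data known. The naming rule gave values per library for the member with the smallest p in each role and for the Cpt1, Acsl, Slc27a and Ppargc1 families; values of other members were added after they had been seen. Of the other lipid genes, the one with the smallest p in each list was named, except 1 that is not reported here.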

Additional observations from a re-analysis of the deposited data

How the results depend on the processing

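The count of fatty acid genes past the test was 0 under every alternative run, and that of other lipid genes was 0 except for 1 (Scd1) without cKO replicate 2, a range of 0 to 1. The smallest adjusted p of any fatty acid gene was 0.124 (Lpl, without control replicate 2). Their median of 0.063 was 0.084 with upper-quartile scaling and 0.051 to 0.074 with 1 library left out. All calls numbered 70 and ranged from 39 to 141 with 1 library left out, 15 to 72 higher and 24 to 69 lower in cKO; genes called higher numbered 31 with DESeq2 and 10 with a mean of at least 5 CPM, where fewer genes were tested. Leaving out cKO replicate 2 sets a male library against female controls, and the part of sex in its calls was not tested. The cause of the other changes was not tested. With the replicate block 75 genes passed and 0 fatty acid genes; the correlation of deviations between same-numbered libraries was 0.095, and nothing in the labels makes a shared number a pair. Summing Acaa1a with Acaa1b changed no call. The log2 fold change of Slc25a20 turned positive with upper-quartile scaling (0.021), DESeq2 (0.00081), no filter (0.0074), the replicate block (0.0027) and thinning (0.00089), and that of Acadl with upper-quartile scaling (0.0046).

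With 1 library left out the sign changed within the range for 19 of the 37: Acadl -0.078 to 0.044, Acadm -0.025 to 0.16, Acads -0.0060 to 0.30, Acsl3 -0.063 to 0.17, Acsl4 -0.13 to 0.28, Cd36 -0.067 to 0.097, Cpt2 -0.00027 to 0.092, Decr1 -0.047 to 0.17, Eci2 -0.069 to 0.016, Etfb -0.0021 to 0.13, Hadh -0.050 to 0.10, Hilpda -0.037 to 0.17, Lpl -0.085 to 0.56, Plin2 -0.14 to 0.048, Ppard -0.33 to 0.0045, Ppargc1a -0.049 to 0.23, Ppargc1b -0.41 to 0.13, Slc25a20 -0.084 to 0.093 and Slc27a1 -0.086 to 0.24. The sign stayed the same for the other 18, but for 14 of them the value moved by over 1.5 times: Acaa1a 0.036 to 0.14, Acadvl 0.077 to 0.24, Acsl1 -0.27 to -0.058, Acsl5 -0.12 to -0.029, Cpt1a -0.11 to -0.014, Cpt1b 0.014 to 0.17, Cpt1c 0.11 to 0.41, Eci1 0.097 to 0.43, Etfa 0.069 to 0.23, Fabp3 0.080 to 0.23, Hadhb 0.018 to 0.11, Pnpla2 0.029 to 0.29, Ppara -0.89 to -0.13 and Slc27a4 -0.19 to -0.050. The 4 that moved less were Acaa2, Echs1, Etfdh and Hadha. Where 1 library of a group remained, its spread was taken from the other group.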
